A study of Mus musculus with 9 samples.

Results

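The non-collagen matrix of the mouse heart was followed from the end of gestation through the first postnatal week in the RNA of 44 genes, out of 48820 genes with an FPKM value. The genes were chosen by symbol, from what their products are known to do, but with earlier results of these data known. They fell into 7 groups by role, with 11 elastic fibre and microfibril genes, 11 genes of fibronectin and the matricellular proteins, 6 small leucine-rich proteoglycans, 4 genes of versican and hyaluronan, 3 basement membrane genes, 3 lysyl oxidases, and 6 genes of metalloproteinases and their inhibitors. Of the 44 genes, 42 reached a mean of 1 FPKM over the hearts and were tested among 13618 genes. *Has1* and *Hapln1* stayed under it and are given by their values. *Has2* passed this filter only through its E18.5d values and *Timp4* only through its P1d values, so both had to differ at these stages in order to be tested.

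The hearts came from wild type (WT), untreated C57BL/6J mice, a common inbred strain, at embryonic day 18.5 (E18.5d), postnatal day 1 (P1d) and postnatal day 7 (P7d), with 3 biological replicates per stage and 9 hearts in all. Strain, genotype, the absence of treatment and the sex label (male) were shared by the 3 stages. The labels give neither litters nor whether a sample was a heart of its own or a pool, so p-values measure the spread between these samples. Whole heart tissue was used, and in such bulk RNA fewer cells of a type and less RNA per cell cannot be told apart. FPKM (fragments per kilobase of transcript and per 1e6 mapped fragments) is a level per length, and levels of different genes can therefore be set beside each other. In what follows, values of a stage are listed in the order of replicates 1, 2 and 3.

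The steps between low FPKM values gave depths of 25.8 to 45.5 times 1e6 fragments per heart. The FPKM columns did not share a total (1347981 to 1794160), and 5 structural RNAs took 53.3% to 62.3% of each. *Xist*, the noncoding RNA that silences an X chromosome, reached 58.0 to 97.0 FPKM in 4 hearts (E18.5d replicates 1 and 3, P7d replicates 2 and 3) and stayed at 0.02 to 0.11 FPKM in the other 5, although all 9 were labelled male. The cardiomyocyte markers summed to 14023 to 20698 FPKM over the hearts, so the defining genes of the labelled tissue were present.

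As background, the cardiac matrix is laid down mostly by fibroblasts, with contributions from smooth muscle, endothelial and epicardial cells and from the cardiomyocytes' own basement membrane. Elastic fibres consist of crosslinked elastin on a scaffold of fibrillin microfibrils and carry the recoil of arteries and valves. Versican and hyaluronan fill the soft matrix of the embryonic heart, small leucine-rich proteoglycans coat collagen fibrils, matricellular proteins modulate adhesion, lysyl oxidases crosslink collagen and elastin, and metalloproteinases degrade matrix under the control of tissue inhibitors (TIMPs).

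At the first step, from E18.5d to P1d, more of these genes fell than rose, as did all tested genes. At the second, from P1d to P7d, more rose than fell. At P1d against E18.5d, 4 of the 42 tested genes were higher (9.52%) and 12 lower (28.6%) (limma on log2(FPKM + 1), adjusted p under 0.05). Of all tested genes 18.4% were higher and 27.6% lower, so the share that fell was near that of all genes. At P7d against P1d, 19 were higher (45.2%) and 7 lower (16.7%), against 15.5% and 28.6% of all genes. Over the whole interval, P7d against E18.5d, 16 were higher (38.1%) and 11 lower (26.2%), against 12.5% and 36.9% of all genes. The median log2 change of the 42 genes was -0.07, 0.21 and 0.03 in these 3 comparisons, beside -0.06, -0.09 and -0.17 for all genes. These counts include *Has2* and *Timp4*. Without them, the counts over 40 genes were 3 higher and 11 lower, 18 and 6, and 16 and 10. The comparisons share hearts and are not independent of each other.

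The split between higher and lower calls depended on how the columns were scaled. After scaling by the median of ratios, which brought the median of all genes at P7d against E18.5d to -0.02, there were 6 higher and 11 lower genes at P1d against E18.5d (23.2% and 22.9% of all genes), 27 and 6 at P7d against P1d (21.9% and 19.8%), and 21 and 7 at P7d against E18.5d (21.3% and 20.9%). After rescaling to an equal sum, there were 3 higher and 22 lower genes at P1d against E18.5d (8.63% and 34.5% of all genes), 25 and 5 at P7d against P1d (16.2% and 12.7%), and 13 and 13 at P7d against E18.5d (9.3% and 32.6%). No called gene changed its direction under any scaling tried. Relative to the median of all genes, each deposited log2 change at P7d against E18.5d lies 0.17 higher than printed.

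**Figure D1:**
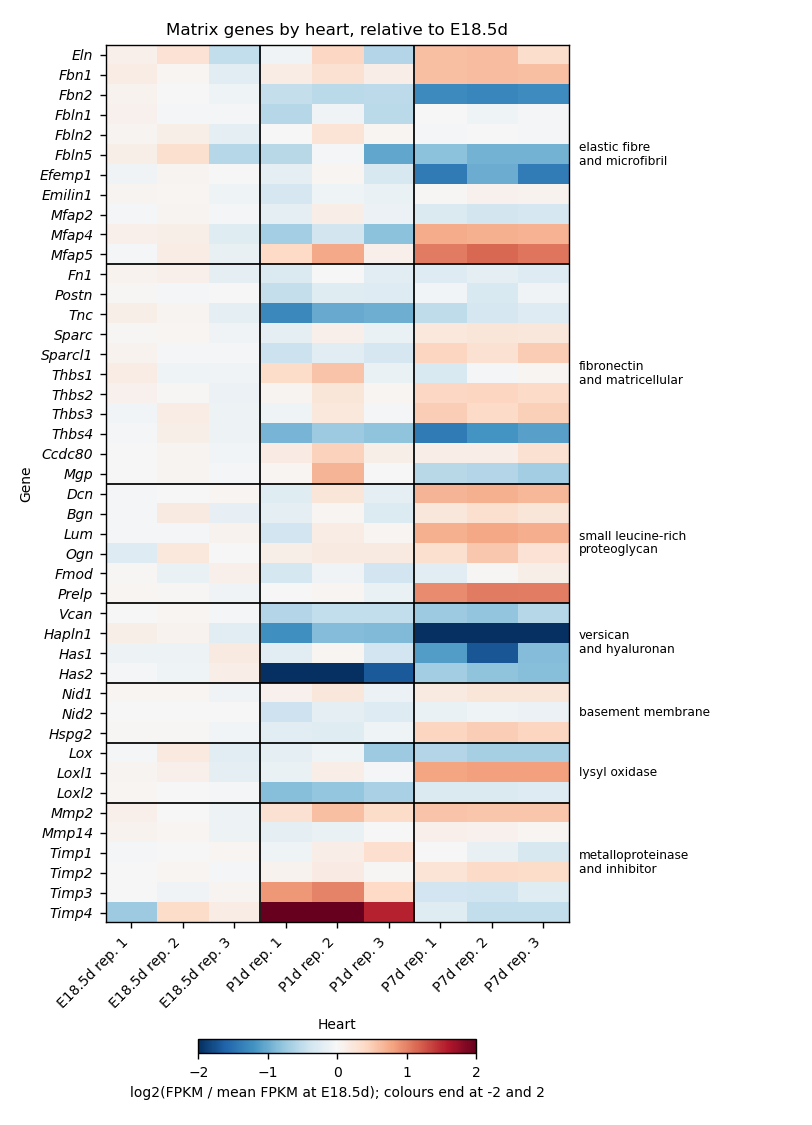
FPKM of the 44 matrix genes in the 9 hearts (columns), drawn as log2 of the ratio to the gene's mean at E18.5d and grouped by role, with colours ending at -2 and 2. The 3 P1d columns are blue for *Tnc*, *Has2* and *Loxl2* and red for *Timp3* and *Timp4*, and the 3 P7d columns are red for the small leucine-rich proteoglycans *Dcn*, *Lum* and *Prelp*.

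**Figure D2:**
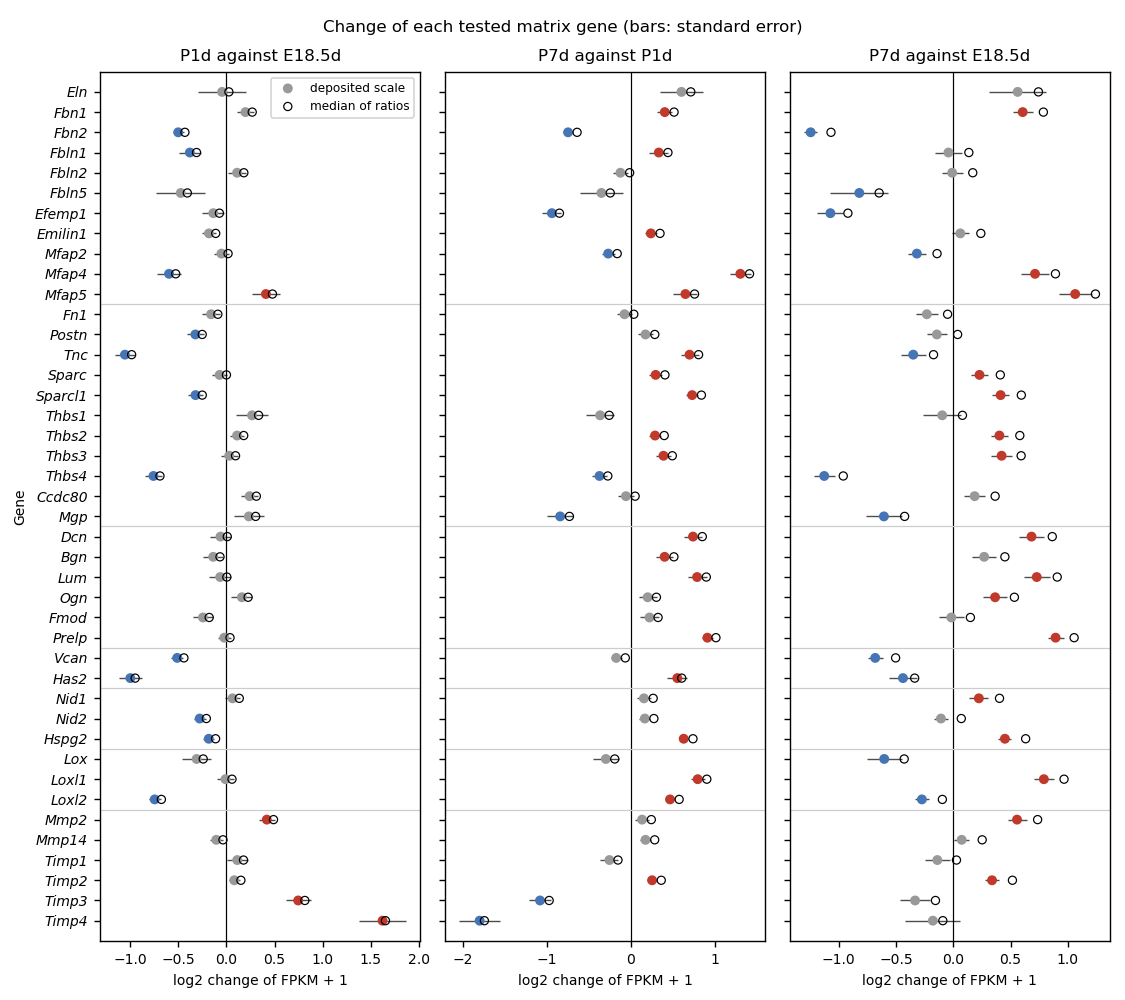
Log2 change of FPKM + 1 with its standard error for the 42 tested genes in the 3 comparisons, on the deposited scale (filled points, red where called higher, blue where called lower, grey otherwise) and after median of ratios scaling (open points). The open points lie to the right of the filled points throughout, and 19 genes are red in the middle panel.

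The patterns over the 3 stages were uneven. At P1d, 7 genes were lower than at both E18.5d and P7d, beside 8.95% of all tested genes, and 2 genes were higher than at both, beside 11% of all genes. *Has2* is among the 7 and *Timp4* is among the 2. For the remaining patterns the share of all tested genes was not counted, so their numbers only describe these genes. A further 11 genes were called only as higher at the second step, from P1d to P7d, and 3 only as lower at that step. At the first step, from E18.5d to P1d, 3 genes were called only as lower and 1, *Mmp2*, only as higher. *Fbn2* and *Thbs4* were lower at both steps, *Mfap5* was higher at both, and 12 genes were called at neither.

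Both genes that peaked at P1d encode tissue inhibitors of metalloproteinases. *Timp3*, which binds to the matrix, was at 52.8, 49.7 and 54.4 FPKM in the E18.5d hearts, 95.8, 104 and 68.95 FPKM in the P1d hearts and 39.99, 39.8 and 44.1 FPKM in the P7d hearts. *Timp4*, an inhibitor known for its expression in the heart, was at 0.65, 1.39 and 1.20 FPKM in the E18.5d hearts, 6.61, 6.98 and 3.15 FPKM in the P1d hearts and 0.91, 0.77 and 0.77 FPKM in the P7d hearts. All 3 P1d hearts lay above all 6 other hearts for both genes, and P1d replicate 3 was the lowest of its stage for both. *Timp3* rose 1.71-fold at P1d (log2 change 0.75 ± 0.13 (SE), adjusted p = 0.00149) and fell 2.17-fold by P7d (log2 change -1.08 ± 0.13 (SE), adjusted p = 0.000231). The mean of *Timp4* at P1d was 5.17-fold that at E18.5d and 6.83-fold that at P7d. As *Timp4* reached the filter only through its P1d values, its test is given from the fit of all genes without a filter (log2 change 1.62, adjusted p = 0.00301 at P1d against E18.5d, and log2 change -1.80, adjusted p = 0.00215 at P7d against P1d). The P1d values of *Timp4* correspond to about 522 to 1079 fragments per heart, and its E18.5d values to about 93 to 291. P7d against E18.5d, neither gene was called (*Timp3* adjusted p = 0.0578, *Timp4* adjusted p = 0.563). *Timp3* was called lower without P1d replicate 2 (adjusted p = 0.0324) or P1d replicate 3 (adjusted p = 0.00283).

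The 7 genes with a dip at P1d came from 5 of the role groups. *Has2*, the main hyaluronan synthase of the embryonic heart, was at 1.67, 1.62 and 1.88 FPKM in the E18.5d hearts, 0.32, 0.25 and 0.54 FPKM in the P1d hearts and 1.07, 0.99 and 0.96 FPKM in the P7d hearts. Its mean was 4.66-fold lower at P1d than at E18.5d and 2.72-fold higher at P7d than at P1d, with about 27 to 63 fragments per P1d heart. As *Has2* reached the filter only through its E18.5d values, its test too is given from the fit without a filter (log2 change -1.0, adjusted p = 0.000351, and then log2 change 0.56, adjusted p = 0.00535). The pseudocount of 1 FPKM understates the change of a gene this low. *Tnc*, the matricellular protein tenascin-C, was at 44.7, 42.5 and 36.2 FPKM in the E18.5d hearts, 16.8, 20.4 and 20.8 FPKM in the P1d hearts and 29.0, 32.5 and 34.5 FPKM in the P7d hearts. It fell 2.13-fold at P1d (log2 change -1.05 ± 0.11 (SE), adjusted p = 7.05e-05) and recovered in part by P7d (log2 change 0.70 ± 0.11 (SE), adjusted p = 0.000808).

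*Loxl2*, a lysyl oxidase that crosslinks collagen IV, was at 60.4, 59.2 and 57.1 FPKM in the E18.5d hearts, 32.5, 34.5 and 37.5 FPKM in the P1d hearts and 48.0, 48.4 and 49.2 FPKM in the P7d hearts. The 3 stages did not overlap, and the fall at P1d (log2 change -0.74 ± 0.06 (SE), adjusted p = 1.91e-05) was followed by a rise at P7d (log2 change 0.47 ± 0.06 (SE), adjusted p = 0.000320). *Mfap4*, a microfibril-associated glycoprotein, was at 43.5, 44.2 and 34.4 FPKM in the E18.5d hearts, 25.4, 31.6 and 23.02 FPKM in the P1d hearts and 68.2, 66.5 and 66.1 FPKM in the P7d hearts. The P1d hearts were the lowest and the P7d hearts the highest, with a fall (log2 change -0.59 ± 0.12 (SE), adjusted p = 0.00342) and then the largest rise among the elastic fibre genes (log2 change 1.31 ± 0.12 (SE), adjusted p = 6.15e-05). *Sparcl1*, also called hevin, was at 142, 134 and 132 FPKM in the E18.5d hearts, 101, 118 and 108 FPKM in the P1d hearts and 184, 167 and 193 FPKM in the P7d hearts. It fell 1.25-fold (log2 change -0.32 ± 0.08 (SE), adjusted p = 0.00692) and then rose 1.67-fold (log2 change 0.73 ± 0.08 (SE), adjusted p = 9.65e-05).

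*Hspg2*, which encodes the basement membrane proteoglycan perlecan, was at 174, 173 and 165 FPKM in the E18.5d hearts, 147, 144 and 160.2 FPKM in the P1d hearts and 231, 239 and 231 FPKM in the P7d hearts. Its dip was shallow (log2 change -0.18 ± 0.06 (SE), adjusted p = 0.0249) and was not called after median of ratios scaling (log2 change -0.11, adjusted p = 0.151), while its rise to P7d was larger (log2 change 0.63 ± 0.06 (SE), adjusted p = 4.76e-05). *Fbln1*, an elastin- and fibronectin-binding fibulin, was at 51.7, 47.6 and 47.4 FPKM in the E18.5d hearts, 33.1, 46.5 and 33.8 FPKM in the P1d hearts and 48.6, 45.9 and 47.7 FPKM in the P7d hearts. P1d replicate 2 overlapped the P7d hearts, and the calls were near the threshold (P1d against E18.5d, log2 change -0.38 ± 0.11 (SE), adjusted p = 0.0228; P7d against P1d, log2 change 0.34 ± 0.11 (SE), adjusted p = 0.0389). The later call was lost when any heart other than P1d replicate 2 was left out (adjusted p = 0.0503 to 0.128). The earlier call was lost without E18.5d replicate 1, P1d replicate 1 or P1d replicate 3 (adjusted p = 0.0701 to 0.0796). All 3 P1d hearts lacked *Xist*, as did only replicate 2 at E18.5d and replicate 1 at P7d. A difference of P1d from the other stages and the *Xist* split therefore cannot be fully told apart. In the 5 hearts without *Xist*, the P1d values of all 7 genes lay below E18.5d replicate 2 and P7d replicate 1, and those of *Timp3* and *Timp4* above them. In a fit with a covariate for *Xist*, both *Fbln1* calls and the *Hspg2* call at P1d against E18.5d were not made.

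**Figure D3:**
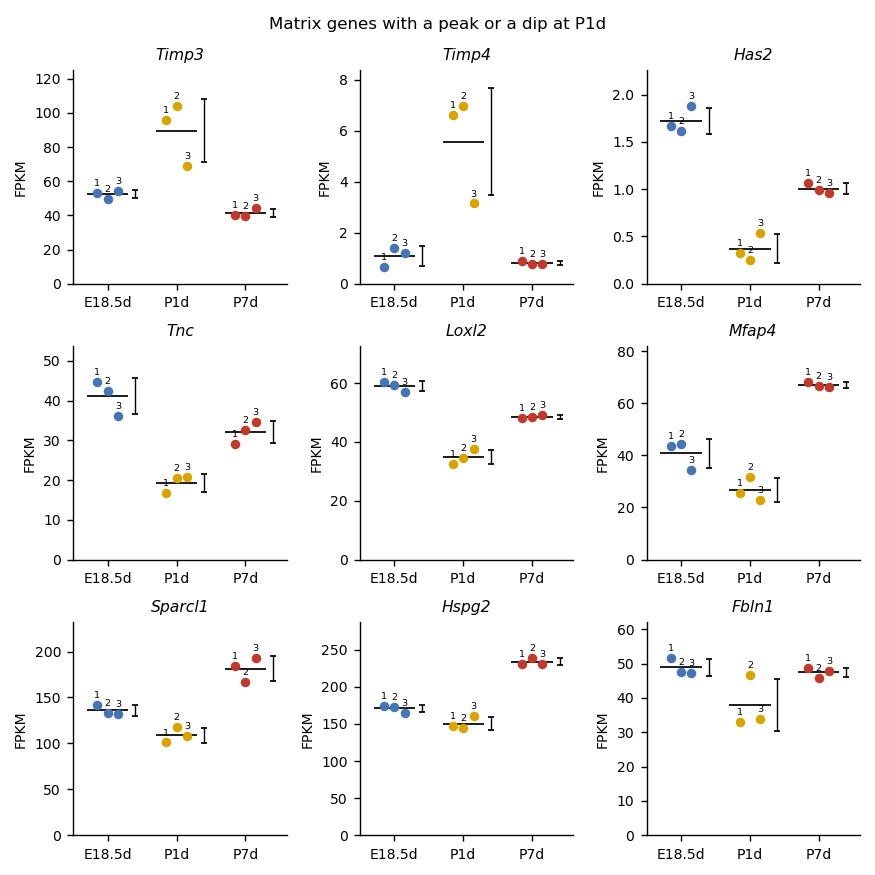
FPKM of the 2 genes with a peak and the 7 genes with a dip at P1d, with a point per heart (number: replicate), the stage mean (line) and the SD (bar, n = 3). For *Timp3*, *Timp4*, *Has2*, *Tnc* and *Loxl2* the P1d points do not overlap those of either other stage, and the *Fbln1* point of P1d replicate 2 lies at the level of the P7d hearts.

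The promoters of 5 of these 9 genes could be read from RefSeq (GRCm38.p6) and are shown because the P1d level of these genes differed from both other stages, upwards for *Timp3* and *Timp4* and downwards for *Tnc*, *Hspg2* and *Fbln1*. Each line gives the bases before the RefSeq transcription start, 5′ to 3′ on the gene's strand, ending before the gene's annotated exons, with matches to the 6 motifs searched in capitals.
*Timp3* (chr10:86300162-86300371, plus strand): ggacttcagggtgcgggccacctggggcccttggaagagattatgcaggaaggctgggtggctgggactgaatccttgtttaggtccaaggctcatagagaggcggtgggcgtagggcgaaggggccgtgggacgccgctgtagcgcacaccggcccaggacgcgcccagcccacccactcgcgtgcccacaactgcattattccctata
*Timp4* (chr6:115252206-115252455, minus strand): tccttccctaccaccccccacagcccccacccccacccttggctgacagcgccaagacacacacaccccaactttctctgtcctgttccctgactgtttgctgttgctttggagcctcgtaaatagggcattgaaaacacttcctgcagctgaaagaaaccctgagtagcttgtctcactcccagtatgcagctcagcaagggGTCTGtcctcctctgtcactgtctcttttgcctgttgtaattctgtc
*Tnc* (chr4:64047016-64047265, minus strand): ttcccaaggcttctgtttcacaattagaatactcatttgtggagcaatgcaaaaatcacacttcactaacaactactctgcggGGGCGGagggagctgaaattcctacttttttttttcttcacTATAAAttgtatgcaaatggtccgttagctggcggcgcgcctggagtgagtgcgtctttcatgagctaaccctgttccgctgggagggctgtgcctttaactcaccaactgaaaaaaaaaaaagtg
*Hspg2* (chr4:137468553-137468768, plus strand): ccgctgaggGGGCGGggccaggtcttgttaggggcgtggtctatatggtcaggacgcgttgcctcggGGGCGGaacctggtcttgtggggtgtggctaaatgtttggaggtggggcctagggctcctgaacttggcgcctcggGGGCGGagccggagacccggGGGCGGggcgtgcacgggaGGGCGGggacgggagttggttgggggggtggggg
*Fbln1* (chr15:85205699-85205948, plus strand): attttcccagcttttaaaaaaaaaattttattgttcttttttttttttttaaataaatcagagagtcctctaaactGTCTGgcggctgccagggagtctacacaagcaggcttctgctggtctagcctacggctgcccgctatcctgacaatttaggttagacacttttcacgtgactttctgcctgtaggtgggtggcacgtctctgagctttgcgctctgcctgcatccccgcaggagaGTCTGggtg

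The motifs were searched on both strands of the 250 bases before each of 32 starts of 27 matrix genes and of 32851 starts in all, and none of them contains another. The GC box (GGGCGG) was present at 18 of the 32 matrix starts (56.3%) and at 32.7% of all starts. It occurred 5 times in the *Hspg2* window and once each before *Tnc* and, within the bases not printed, *Timp3*. The SMAD-binding core (CAGAC) was at 15 of the 32 starts (46.9%) and at 42.2% of all, with 2 matches before *Fbln1* and 1 before *Timp4*. The TATA box (TATAAA) was at 5 (15.6%) and 12.4%, among them *Tnc*, and the TEAD core (CATTCC) at 5 (15.6%) and 12.6%. The AP-1 site (TGANTCA) was at 1 (3.13%) and 6.75%, and the spaced glucocorticoid receptor motif (ACANNNTGT) at 0 of 32 and 5.84%. The matches named for single genes are those of the 1 start printed per gene. At starts not printed, *Fbln1* also had a GC box and *Tnc* a SMAD-binding core. No motif was present in all 5 windows, and a match is a run of letters, not a measured binding site. *Mfap4*, *Sparcl1*, *Has2* and *Loxl2* were not among the sequences used here.

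Among the elastic fibre and microfibril genes, fibrillin-1 and fibrillin-2 moved apart. *Fbn2*, the fibrillin of foetal microfibrils, was at 68.6, 65.2 and 61.7 FPKM in the E18.5d hearts, 47.02, 44.8 and 45.5 FPKM in the P1d hearts and 27.1, 26.4 and 27.1 FPKM in the P7d hearts. *Fbn1*, the main fibrillin of postnatal tissue, was at 131, 123 and 103 FPKM in the E18.5d hearts, 131, 147 and 130.0 FPKM in the P1d hearts and 179, 182 and 179.8 FPKM in the P7d hearts. *Fbn2* fell at both steps without overlap between stages (log2 change -0.50 ± 0.06 (SE), adjusted p = 0.000111, then log2 change -0.75 ± 0.06 (SE), adjusted p = 1.95e-05), a 2.42-fold fall over the whole interval. *Fbn1* rose 1.52-fold over the same interval (log2 change 0.60 ± 0.09 (SE), adjusted p = 0.000484).

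*Mfap5* and *Efemp1* also moved in opposite directions. *Mfap5*, the microfibril-associated glycoprotein MAGP-2, was at 24.8, 28.1 and 22.9 FPKM in the E18.5d hearts, 33.2, 42.96 and 27.03 FPKM in the P1d hearts and 52.1, 55.8 and 53.2 FPKM in the P7d hearts. It rose 2.13-fold by P7d (log2 change 1.06 ± 0.14 (SE), adjusted p = 0.000300), and its earlier step at P1d, where P1d replicate 3 overlapped the E18.5d hearts, was near the threshold (log2 change 0.41 ± 0.14 (SE), adjusted p = 0.0396). *Efemp1*, which encodes fibulin-3, was at 8.39, 9.13 and 8.77 FPKM in the E18.5d hearts, 7.77, 9.0 and 7.0 FPKM in the P1d hearts and 3.28, 4.41 and 3.31 FPKM in the P7d hearts. Its fall took place after P1d (log2 change -0.94 ± 0.11 (SE), adjusted p = 0.000227) and amounted to 2.39-fold against E18.5d (log2 change -1.07 ± 0.11 (SE), adjusted p = 7.36e-05).

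*Eln*, the elastin gene and the most abundant gene of this group, was at 518, 587 and 344 FPKM in the E18.5d hearts, 460.4, 643 and 322 FPKM in the P1d hearts and 737, 740.3 and 617 FPKM in the P7d hearts. Its P7d hearts lay above all E18.5d hearts, but P1d replicate 2 overlapped them, and neither P7d comparison passed the threshold (P7d against E18.5d, log2 change 0.56 ± 0.25 (SE), adjusted p = 0.0898). Both did when P1d replicate 2 was left out (adjusted p = 0.0463 against E18.5d and 0.0181 against P1d) and after median of ratios scaling (log2 change 0.74 against E18.5d, adjusted p = 0.0359, and 0.72 against P1d, adjusted p = 0.0415). *Fbln5*, a fibulin needed for elastic fibre assembly, was at 31.7, 36.2 and 19.6 FPKM in the E18.5d hearts, 19.9, 28.5 and 14.2 FPKM in the P1d hearts and 16.5, 15.1 and 15.1 FPKM in the P7d hearts. It was 1.87-fold lower at P7d than at E18.5d (log2 change -0.82 ± 0.25 (SE), adjusted p = 0.0225), a call lost after median of ratios scaling (adjusted p = 0.0582). Of the other genes of the group, *Mfap2* (MAGP-1) fell from 31.8 ± 3.73 to 26.1 ± 0.665 FPKM between P1d and P7d (mean ± SD, n = 3), *Emilin1* rose from 52.5 ± 4.86 to 62.1 ± 1.10 FPKM, and *Fbln2* was called in no comparison (97.8 ± 10.3, 106 ± 11.4 and 96.8 ± 0.873 FPKM). The *Mfap2* call was lost after median of ratios scaling.

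The spread of *Eln*, *Fbln5* and *Lox* before P7d had an order of hearts that some other matrix genes and some cell type markers shared. *Myh11*, the smooth muscle myosin heavy chain, was at 14.98, 21.5 and 10.8 FPKM in the E18.5d hearts, 13.4, 15.4 and 9.16 FPKM in the P1d hearts and 14.8, 12.5 and 13.7 FPKM in the P7d hearts. *Tagln*, a smooth muscle actin-binding protein that the embryonic myocardium also expresses, was at 83.3, 85.0 and 54.4 FPKM in the E18.5d hearts, 78.1, 90.4 and 49.9 FPKM in the P1d hearts and 42.6, 37.95 and 42.9 FPKM in the P7d hearts. Replicate 3 was the lowest of its stage at E18.5d and at P1d for *Eln*, *Fbln5*, *Lox*, *Myh11* and *Tagln*, and replicate 2 the highest. *Mgp* followed the same order at both stages, with 295 FPKM in P1d replicate 2. So did *Mfap4*, *Mfap5*, *Bgn*, *Ccdc80* and *Timp2*, and the order was therefore not particular to elastic fibre genes. Of the 7 smooth muscle and pericyte markers, 3 (*Myh11*, *Tagln* and *Kcnj8*) had this order at both stages, and the sum of the list had it at E18.5d but not at P1d, where *Acta2* and with it the sum were lowest in replicate 2. Of the summed levels of 12 marker lists, 2 had this order at both stages. The fibroblast list summed to 888, 915 and 846 FPKM in the E18.5d hearts and to 736, 989 and 707 FPKM in the P1d hearts, and the Schwann cell list to 8.12, 10.6 and 7.70 FPKM and to 10.1, 11.4 and 6.75 FPKM. The part of fibroblasts, smooth muscle or other cells in these values was not tested.

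**Figure D4:**
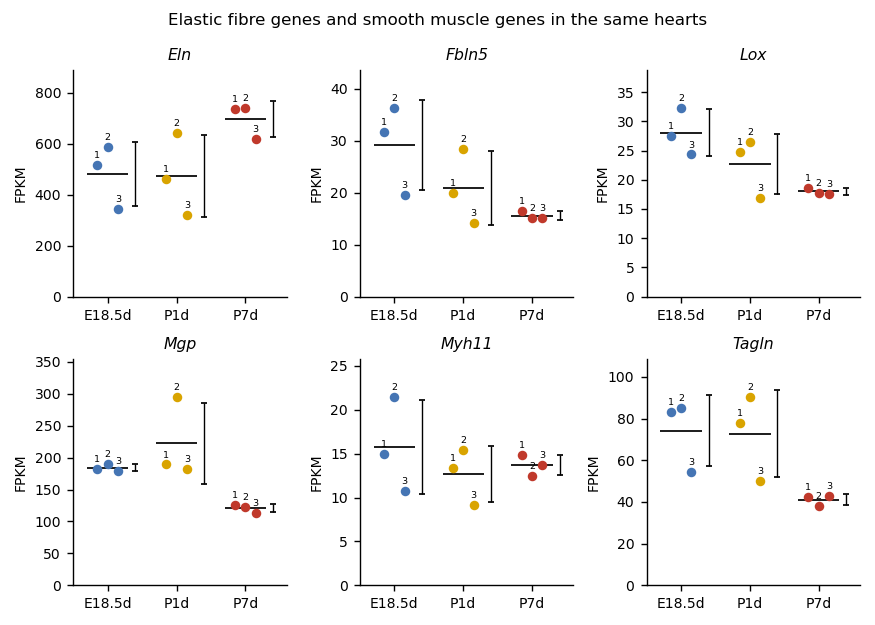
FPKM of *Eln*, *Fbln5*, *Lox* and *Mgp* and of the smooth muscle genes *Myh11* and *Tagln*, with a point per heart (number: replicate), the stage mean (line) and the SD (bar, n = 3). At E18.5d and P1d, replicate 3 is the lowest and replicate 2 the highest point in every panel, and the P7d points lie close together.

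Among fibronectin and the matricellular genes, *Sparc* was the most abundant of all 44 genes. *Sparc*, a collagen-binding glycoprotein, was at 659.7, 670.0 and 618 FPKM in the E18.5d hearts, 574, 697 and 590.2 FPKM in the P1d hearts and 749, 769 and 763 FPKM in the P7d hearts. It was 1.23-fold higher at P7d than at P1d (log2 change 0.30 ± 0.08 (SE), adjusted p = 0.0123) and 1.17-fold higher than at E18.5d (log2 change 0.23 ± 0.08 (SE), adjusted p = 0.0341). The call against E18.5d was lost in 9 of the alternative fits. It was not made when any 1 of the E18.5d or P7d hearts was left out (adjusted p = 0.0588 to 0.105). *Thbs4*, a pentameric thrombospondin, was at 17.4, 19.1 and 16.6 FPKM in the E18.5d hearts, 9.30, 10.8 and 10.2 FPKM in the P1d hearts and 6.65, 7.75 and 8.34 FPKM in the P7d hearts. The 3 stages did not overlap, with a fall at P1d (log2 change -0.76 ± 0.09 (SE), adjusted p = 0.000188), a further fall (log2 change -0.37 ± 0.09 (SE), adjusted p = 0.00988) and a 2.34-fold difference over the interval.

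The thrombospondins did not move together. *Thbs3* was at 12.6, 14.5 and 12.3 FPKM in the E18.5d hearts, 12.4, 15.2 and 12.8 FPKM in the P1d hearts and 18.4, 17.1 and 18.2 FPKM in the P7d hearts, and it rose after P1d (log2 change 0.39 ± 0.09 (SE), adjusted p = 0.00681). *Thbs2* rose from 40.9 ± 2.89 to 54.3 ± 0.621 FPKM between E18.5d and P7d, and *Thbs1* was called in no comparison, with 32.2 to 52.8 FPKM in the P1d hearts. *Mgp*, matrix Gla protein, an inhibitor of arterial calcification, was at 183, 191 and 179.6 FPKM in the E18.5d hearts, 189, 295 and 183 FPKM in the P1d hearts and 126, 123 and 113 FPKM in the P7d hearts. The P7d hearts lay below all 6 others, and it fell 1.84-fold from P1d (log2 change -0.84 ± 0.15 (SE), adjusted p = 0.00216) and 1.53-fold from E18.5d (log2 change -0.61 ± 0.15 (SE), adjusted p = 0.00963).

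*Postn*, periostin, a matricellular protein of valves and fibroblasts, fell from 502 ± 8.47 FPKM at E18.5d to 402 ± 34.7 FPKM at P1d, and its P7d level of 455 ± 43.5 FPKM was not called against either stage. *Fn1*, fibronectin, was called in no comparison, with 322 ± 35.04, 289 ± 30.4 and 273 ± 5.95 FPKM at the 3 stages. *Ccdc80* was not called either, with 56.4 ± 2.14, 67.3 ± 9.01 and 64.4 ± 4.32 FPKM, although after median of ratios scaling it was higher at both postnatal stages than at E18.5d.

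Of the 6 small leucine-rich proteoglycans, 4 rose at the second step. At P1d against E18.5d, 0 of the 6 were called, beside 18.4% of all genes higher and 27.6% lower. At P7d against P1d, 4 were higher and 0 lower, beside 15.5% and 28.6% of all genes, and at P7d against E18.5d 4 were higher and 0 lower, beside 12.5% and 36.9%. The median log2 change was -0.06, 0.57 and 0.52 in these comparisons. *Dcn*, decorin, which coats collagen fibrils and was the most abundant of the 6, was at 180.5, 184 and 189 FPKM in the E18.5d hearts, 156, 217 and 163 FPKM in the P1d hearts and 295, 301 and 294 FPKM in the P7d hearts. *Lum*, lumican, was at 44.4, 44.1 and 47.8 FPKM in the E18.5d hearts, 34.9, 50.2 and 46.7 FPKM in the P1d hearts and 74.7, 77.7 and 75.2 FPKM in the P7d hearts. *Prelp* was at 6.02, 5.97 and 5.58 FPKM in the E18.5d hearts, 5.86, 6.05 and 5.36 FPKM in the P1d hearts and 11.2, 12.0 and 11.96 FPKM in the P7d hearts. For all 3 genes the P7d hearts lay above the 6 earlier hearts, and the earlier stages overlapped each other.

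Between P1d and P7d, *Prelp* rose 2.04-fold (log2 change 0.91 ± 0.07 (SE), adjusted p = 2.12e-05), *Lum* 1.73-fold (log2 change 0.79 ± 0.11 (SE), adjusted p = 0.000569) and *Dcn* 1.66-fold (log2 change 0.74 ± 0.11 (SE), adjusted p = 0.000587). *Bgn*, biglycan, rose from 139 ± 16.5 to 183 ± 6.69 FPKM over the same step and was not called against E18.5d (adjusted p = 0.0517). That call was made when E18.5d replicate 2, P1d replicate 2 or P1d replicate 3 was left out (adjusted p = 0.0206, 0.0255 and 0.0438). *Ogn*, osteoglycin, was higher at P7d (14.3 ± 1.42 FPKM) than at E18.5d (10.96 ± 1.75 FPKM), and *Fmod*, fibromodulin, was called in no comparison (10.96 ± 0.877, 9.13 ± 1.16 and 10.8 ± 1.27 FPKM). With median of ratios scaling all 6 were higher at P7d than at P1d. Without P1d replicate 2, *Dcn* and *Fmod* were lower at P1d than at E18.5d (adjusted p = 0.0111 and 0.0312).

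Versican and the hyaluronan genes had lower means at P7d than at E18.5d, a comparison in which 36.9% of all tested genes were called lower. *Vcan*, the large hyaluronan-binding proteoglycan of the embryonic heart, was at 63.3, 65.2 and 62.02 FPKM in the E18.5d hearts, 42.4, 45.2 and 45.3 FPKM in the P1d hearts and 38.5, 36.7 and 42.6 FPKM in the P7d hearts. It fell 1.43-fold at P1d (log2 change -0.51 ± 0.06 (SE), adjusted p = 0.000231) and was 1.62-fold lower at P7d than at E18.5d (log2 change -0.68 ± 0.06 (SE), adjusted p = 3.96e-05), and P7d replicate 3 overlapped the P1d hearts. *Hapln1*, the link protein that joins versican to hyaluronan, was at 1.14, 1.11 and 0.91 FPKM in the E18.5d hearts, 0.45, 0.58 and 0.57 FPKM in the P1d hearts and 0.21, 0.23 and 0.24 FPKM in the P7d hearts. *Has1*, a second hyaluronan synthase, was at 1.03, 1.04 and 1.26 FPKM in the E18.5d hearts, 0.96, 1.14 and 0.85 FPKM in the P1d hearts and 0.51, 0.34 and 0.61 FPKM in the P7d hearts. The *Hapln1* hearts did not overlap between any stages, and the P7d hearts of *Has1* lay below all others.

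Both genes were under the filter of 1 FPKM and carried about 43 to 233 (*Hapln1*) and 59 to 165 (*Has1*) fragments per heart. In the fit without a filter, *Hapln1* was lower at P7d than at E18.5d (log2 change -0.74, adjusted p = 0.000200) and *Has1* likewise (log2 change -0.51, adjusted p = 0.00728). The *Has2* level described above was 1.71-fold lower at P7d than at E18.5d (without a filter, log2 change -0.44, adjusted p = 0.0124). That call was not made with a pseudocount of 0.1 (log2 change -0.72, adjusted p = 0.0560) or after quantile normalization (log2 change -0.28, adjusted p = 0.0690). All 4 genes of the group thus had lower means at P7d than at E18.5d. Of all tested genes 36.9% were called lower in this comparison, and their median log2 change was -0.17.

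Among the basement membrane genes, perlecan (*Hspg2*) rose 1.37-fold between E18.5d and P7d (log2 change 0.45 ± 0.06 (SE), adjusted p = 0.000198). *Nid1*, nidogen-1, which links laminin to collagen IV, was at 93.5, 93.5 and 87.1 FPKM in the E18.5d hearts, 96.5, 107 and 84.3 FPKM in the P1d hearts and 104, 108 and 108 FPKM in the P7d hearts. *Nid2*, nidogen-2, was at 41.05, 40.7 and 41.2 FPKM in the E18.5d hearts, 30.8, 36.3 and 34.1 FPKM in the P1d hearts and 37.5, 38.7 and 37.8 FPKM in the P7d hearts. *Nid1* was slightly higher at P7d than at E18.5d (log2 change 0.22 ± 0.08 (SE), adjusted p = 0.0462), a call lost in 11 of the alternative fits, whereas *Nid2* fell at P1d without overlap (log2 change -0.28 ± 0.06 (SE), adjusted p = 0.00607) and its P7d level was called against neither stage.

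The 3 lysyl oxidases took 3 different courses. *Lox*, the founding member, was at 27.5, 32.3 and 24.3 FPKM in the E18.5d hearts, 24.8, 26.4 and 16.9 FPKM in the P1d hearts and 18.6, 17.8 and 17.6 FPKM in the P7d hearts. *Loxl1*, which is needed for elastin crosslinking, was at 24.6, 25.3 and 20.9 FPKM in the E18.5d hearts, 21.6, 25.8 and 22.9 FPKM in the P1d hearts and 40.8, 41.5 and 41.9 FPKM in the P7d hearts. *Lox* was 1.56-fold lower at P7d than at E18.5d (log2 change -0.60 ± 0.15 (SE), adjusted p = 0.00968), without a call at either step, while *Loxl1* rose 1.77-fold after P1d (log2 change 0.80 ± 0.09 (SE), adjusted p = 0.000122). *Loxl2*, with its dip at P1d, ended 1.21-fold below E18.5d (log2 change -0.27 ± 0.06 (SE), adjusted p = 0.00465), a call that was not made after median of ratios scaling (adjusted p = 0.239).

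Among the metalloproteinases, *Mmp2*, gelatinase A, was at 68.7, 64.3 and 59.97 FPKM in the E18.5d hearts, 79.3, 97.9 and 82.6 FPKM in the P1d hearts and 95.8, 94.7 and 94.2 FPKM in the P7d hearts. It rose 1.35-fold at P1d (log2 change 0.42 ± 0.08 (SE), adjusted p = 0.00278) and stayed above E18.5d at P7d (log2 change 0.56 ± 0.08 (SE), adjusted p = 0.000536). *Mmp14*, the membrane-bound enzyme that activates the *Mmp2* product, was called in no comparison (60.1 ± 3.78, 55.9 ± 3.80 and 63.2 ± 1.36 FPKM). Of the inhibitors, *Timp2* rose at the second step, from 43.4 ± 2.26 to 51.9 ± 2.01 FPKM, *Timp1* was called in no comparison (11.9 ± 0.310, 13.01 ± 1.90 and 10.7 ± 1.20 FPKM), and *Timp3* and *Timp4* had the P1d peaks described above.

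Ratios of 2 genes within a heart do not depend on how the columns are scaled. For 10 ratios and 3 comparisons, 30 exact two-sided permutation tests were made, and with 3 hearts against 3 none can go below p = 0.1, which after Benjamini-Hochberg adjustment is 0.136. *Fbn2* to *Fbn1* was 0.523, 0.531 and 0.601 in the E18.5d hearts, 0.358, 0.306 and 0.350 in the P1d hearts and 0.151, 0.145 and 0.151 in the P7d hearts. *Loxl1* to *Lox* was 0.893, 0.783 and 0.859 in the E18.5d hearts, 0.870, 0.974 and 1.36 in the P1d hearts and 2.19, 2.34 and 2.37 in the P7d hearts. The fibrillin ratio fell 3.69-fold from E18.5d to P7d and the stages did not overlap (exact permutation p = 0.1). The lysyl oxidase ratio rose 2.72-fold (exact permutation p = 0.1), with an overlap between E18.5d and P1d.

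*Timp3* to *Timp2* was 1.29, 1.18 and 1.37 in the E18.5d hearts, 2.24, 2.27 and 1.67 in the P1d hearts and 0.806, 0.747 and 0.833 in the P7d hearts. *Timp4* to *Timp1* was 0.0558, 0.118 and 0.0981 in the E18.5d hearts, 0.594, 0.538 and 0.211 in the P1d hearts and 0.0763, 0.0718 and 0.0808 in the P7d hearts. Both inhibitor ratios were highest in the 3 P1d hearts (exact permutation p = 0.1 against either other stage). *Thbs4* to *Thbs1* fell from a mean of 0.503 at E18.5d to 0.241 at P1d and was 0.229 at P7d.

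*Mmp2* to *Timp2* had means of 1.57, 1.99 and 1.83 at the 3 stages, and the E18.5d hearts lay below all others. *Lum* to *Dcn* stayed between 0.224 and 0.286 in all 9 hearts, while *Bgn* to *Dcn* was lower at P7d (0.617 ± 0.0150) than at E18.5d (0.827 ± 0.110) or P1d (0.782 ± 0.0657). *Sparcl1* to *Sparc* was lowest at P1d (0.176 ± 0.00686) and highest at P7d (0.239 ± 0.0190), with no overlap between stages. *Nid2* to *Nid1* was 0.449 ± 0.0211 at E18.5d, above every heart of the later stages (mean ± SD, n = 3 for each ratio).

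**Figure D5:**
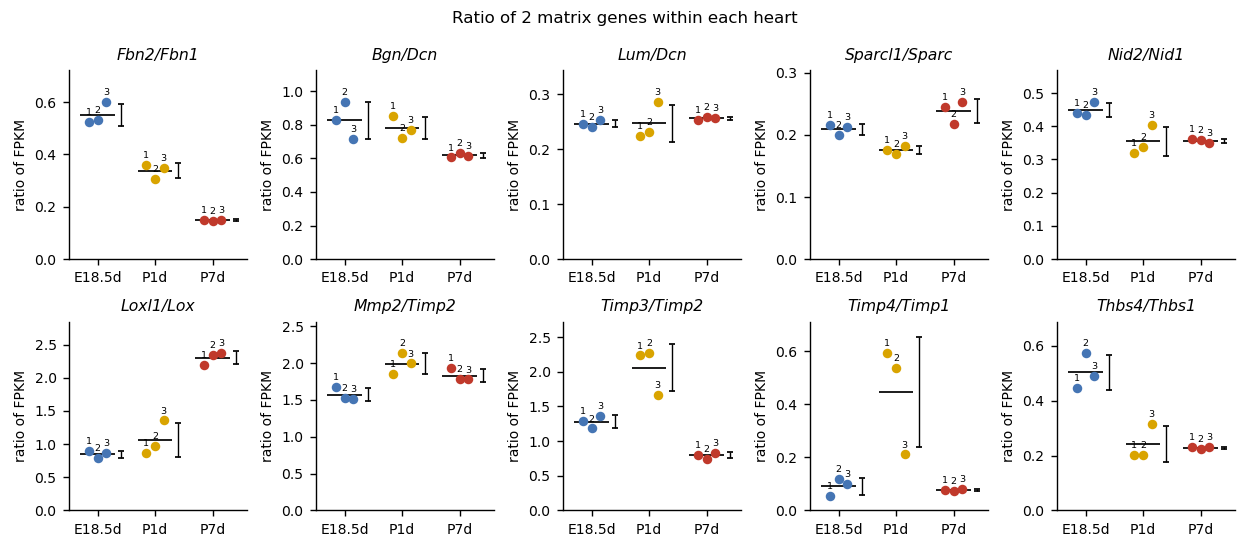
Ratio of the FPKM of 2 genes in each heart for the 10 ratios, with a point per heart (number: replicate), the stage mean (line) and the SD (bar, n = 3). *Fbn2*/*Fbn1* descends from stage to stage without overlap, *Loxl1*/*Lox* is above 2.1 in every P7d heart only, and *Timp3*/*Timp2* and *Timp4*/*Timp1* are highest at P1d.

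By level, a few genes held a large part of the summed FPKM of the 44 genes. *Sparc* held 15.4% to 16.5% of the summed FPKM of the 44 genes in every heart, and *Eln* held 8.99% to 15.8%. *Sparc*, *Eln*, *Postn*, *Fn1* and *Dcn* had the highest means over the 9 hearts, with 677, 552, 453, 295 and 220.1 FPKM. *Postn* went from the second rank at E18.5d to the third at P7d, below *Eln*, but the E18.5d hearts of *Eln* spread over both sides of the *Postn* values. *Dcn* passed *Fn1* at P7d, where the 3 *Dcn* values (293.76 FPKM and above) exceeded the 3 *Fn1* values.

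Summed over the 44 genes, the level was 3803 to 4341 FPKM in the E18.5d hearts, 3584 to 4483 FPKM in the P1d hearts and 4612 to 4691 FPKM in the P7d hearts. As a share of the FPKM of protein-coding nuclear genes, this was 0.756% to 0.849%, 0.720% to 0.845% and 1.02% to 1.03%, so the P7d hearts lay above all others. Within the matrix sum, the share of the small leucine-rich proteoglycans went from 9.44% to 10.5% at E18.5d to 12.4% to 13.0% at P7d. The share of versican and the hyaluronan genes went from 1.58% to 1.74% down to 0.818% to 0.962%, and that of metalloproteinases and inhibitors was highest at P1d (7.20% to 7.90%).

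A further 72 matrix genes with related roles, of which 61 were tested, also moved both ways. At P1d against E18.5d, 12 were higher and 18 lower (19.7% and 29.5% of those tested), at P7d against P1d 23 and 17 (37.7% and 27.9%), and at P7d against E18.5d 22 and 20 (36.1% and 32.8%), beside the shares of all genes given above. At P1d the strongest rises were those of the matricellular genes *Ccn2* (log2 change 1.80, adjusted p = 0.000323) and *Ccn1* (log2 change 1.47, adjusted p = 0.000137), known targets of the co-activator YAP, and of *Comp*, also called thrombospondin-5 (log2 change 0.96, adjusted p = 0.000121). *Ccn2* was at 72.5, 65.3 and 76.1 FPKM in the E18.5d hearts, 256, 338 and 181 FPKM in the P1d hearts and 48.7, 76.3 and 87.2 FPKM in the P7d hearts, and the fall back to the earlier level by P7d was the strongest fall of that step (log2 change -1.85, adjusted p = 0.000344).

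The strongest falls at P1d were those of *Spon2*, F-spondin's relative spondin-2 (log2 change -1.47, adjusted p = 0.000781), *Plod2*, a collagen lysyl hydroxylase (log2 change -1.15, adjusted p = 4.8e-06), and the versican-cleaving protease gene *Adamts9* (log2 change -0.73, adjusted p = 5.8e-05). *Spon2* was at 29.4, 32.9 and 26.98 FPKM in the E18.5d hearts, 7.64, 7.98 and 16.6 FPKM in the P1d hearts and 30.7, 33.1 and 30.5 FPKM in the P7d hearts and so had a dip, with a rise by P7d (log2 change 1.55, adjusted p = 0.000673). From P1d to P7d the other strong falls were those of *Spp1*, osteopontin (log2 change -1.65, adjusted p = 0.0333), and *Tgfbi* (log2 change -1.29, adjusted p = 1.42e-05), and the strongest rises those of *Vtn*, vitronectin (log2 change 2.03, adjusted p = 1.92e-05), *Spon2* and the leucine-rich proteoglycan *Podn* (log2 change 1.26, adjusted p = 6.81e-05).

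Over the whole interval, *Vtn* (log2 change 2.69, adjusted p = 1.61e-06), *Podn* (log2 change 1.83, adjusted p = 4.56e-06) and *Emilin2* (log2 change 1.31, adjusted p = 0.000151) rose most, and *Spp1* (log2 change -1.79, adjusted p = 0.0210), *Mmrn1* (log2 change -1.17, adjusted p = 0.000448) and the transglutaminase gene *Tgm2* (log2 change -1.17, adjusted p = 9.19e-06) fell most. By role, at P7d against E18.5d, the lists had 3 higher and 3 lower of 10 tested elastic fibre genes, 7 and 5 of 16 matricellular genes, 1 and 0 of 2 small leucine-rich proteoglycans, 0 and 5 of 7 genes of hyaluronan and large proteoglycans, 1 and 1 of 4 basement membrane genes, 1 and 3 of 5 crosslinking genes and 9 and 3 of 17 protease genes, beside 12.5% higher and 36.9% lower of all genes.

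Markers of cell types that a heart sample can hold also moved between stages, and their part in the values above was not tested. Each list of 5 to 7 markers is given as its summed FPKM at E18.5d, P1d and P7d in turn, and 0 markers of any list were at 0 in every heart. The fibroblast list summed to 846 to 915, 707 to 989, 998 to 1028, with 0 higher and 3 lower of 7 at P1d against E18.5d and 4 higher and 1 lower at P7d against P1d. Of its genes, *Col1a1*, *Col1a2*, *Dpt*, *Ddr2* and *Gsn* also act in the matrix or bind it. The smooth muscle and pericyte list summed to 778 to 966, 799 to 884, 722 to 829, mostly through *Acta2* (means of 701, 659 and 551 FPKM). At P7d against E18.5d, 3 of its 7 markers were higher (*Rgs5*, *Kcnj8* and *Pdgfrb*) and 3 lower (*Cnn1*, *Tagln* and *Acta2*). The endothelial list summed to 413 to 447, 489 to 533, 543 to 562 and the epicardial list to 56.7 to 69.1, 55.3 to 71.04, 29.6 to 33.9, with 5 of 6 epicardial markers lower at P7d than at E18.5d. Beside these counts, 18.4% of all tested genes were higher and 27.6% lower at P1d against E18.5d. The shares were 15.5% and 28.6% at P7d against P1d, and 12.5% and 36.9% at P7d against E18.5d.

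The macrophage list summed to 61.98 to 77.4, 87.1 to 127, 82.3 to 86.8, the cardiomyocyte list to 14023 to 14246, 19434 to 20309, 20445 to 20698, the erythroid list to 8418 to 22746, 12731 to 24726, 8549.5 to 10409 and the Schwann cell list to 7.70 to 10.6, 6.75 to 11.4, 7.58 to 8.03. The cartilage list summed to 13.1 to 17.4, 10.3 to 17.9, 6.60 to 6.71, mostly through *Acan*, which cardiac valves express too, with *Matn1* at 0.02 FPKM or less in every heart. The adipocyte list summed to 6.15 to 7.77, 26.4 to 26.9, 33.9 to 39.4, mostly through *Cidea* (means of 6.71, 22.3 and 26.7 FPKM). From P1d to P7d its marker *Adipoq* fell (means of 2.37 and 0.947 FPKM) and *Ucp1* rose (0.453 and 6.62 FPKM). The skeletal muscle list, which holds genes of heart muscle such as *Acta1*, summed to 1900.4 to 1934, 1569 to 1707, 1530.1 to 1637, mostly through *Ckm* (means of 1870, 1598 and 1527 FPKM). The lung epithelium list summed to 91.0, 252 and 2.0 in the E18.5d hearts, 492, 3.2 and 1.1 in the P1d hearts and at most 0.320 at P7d, through the airway genes *Scgb3a1*, *Scgb3a2* and *Scgb1a1*, while *Sftpc* was at most 0.44 FPKM. The order of these sums was that of *Eln* at E18.5d, with replicate 2 the highest and replicate 3 the lowest. At P1d replicate 1 had the highest sum, replicate 2 the highest *Eln* value and replicate 3 the lowest of both. The part of lung tissue in the *Eln* values was not tested.

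The calls were also examined against the *Xist* split and against overlapping genes. With a covariate for *Xist* above 1 FPKM, 60 of the 69 calls were made. In the 5 hearts without *Xist*, which leave 1 heart at E18.5d and 1 at P7d, assumed to vary like the P1d hearts, 5 calls were made: *Fbn2* and *Thbs4* at P7d against E18.5d, and *Tnc*, *Thbs4* and *Loxl2* at P1d against E18.5d. Of the 44 genes, 16 share exon bases with a gene on the opposite strand in GENCODE M21, and without strand such reads cannot be told apart. The overlap was largest for *Timp3* (21.3% of its exon bases, with *Syn3* at a mean of 0.752 FPKM) and *Fbn1* (20.1%, with *Gm9913* at 0.844 FPKM). The partner was more abundant than the matrix gene for *Nid2* (8.45%, *Rtraf* at 76.6 FPKM) and *Thbs3* (6.59%, *Mtx1* at 38.1 FPKM), so the *Nid2* and *Thbs3* values may hold reads of these genes.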

How the data were processed

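Total RNA of 9 hearts, 3 per stage, was sequenced after library construction with a NEBNext Ultra kit. The authors deposited FPKM values with 2 decimals in 1 table with a column per heart, and every column belonged to a sample. The submitters' processing notes name STAR and the build GRCm38 (mm10), while the counting tool, the annotation release and any use of strand are not given in the sources used here. GENCODE M21 (GRCm38) gave the gene positions and holds 48058 of the 48820 identifiers. Since counts were not at hand, depth was estimated from the steps between low FPKM values, 82.5% to 88.8% of which were whole within 0.1 fragment, and fragments per gene are estimates from this depth.

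The values were transformed to log2(FPKM + 1), and this scale understates the change of low genes. A model of the 3 stages, without covariates, was fitted to the 13618 genes whose mean reached 1 FPKM, using lmFit, contrasts.fit and eBayes with trend from limma 3.58.1 (R 4.3.3). P-values were adjusted over all these genes after Benjamini and Hochberg, and an adjusted p under 0.05 was called. The fit was tested on simulated data. Fold changes are ratios of mean FPKM. Ratios of genes were compared by exact two-sided permutation tests with scipy 1.17.1 (Python 3.11.15, pandas 2.3.3, numpy 2.4.6), and matplotlib 3.10.9 drew the figures. Promoter sequences came from RefSeq (GRCm38.p6), in which 27 of the 44 genes were found.

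Every one of the 44 genes was accounted for. Values in every heart were given, per role group, for the 3 genes with the largest change (5 in the groups of 11) among calls whose hearts did not overlap, for the most abundant gene, and for every P1d peak or dip, and for the further 72 matrix genes the 3 largest calls in each direction per comparison. *Myh11*, *Tagln*, *Kcnj8*, *Has1* and *Hapln1* were given beside them after their values were seen. The genes, lists, motifs and ratios were chosen with earlier results of these data known. The scaling was varied by an equal column sum, quantile normalization and the median of ratios. Other alternatives left out the filter or raised it to 5 FPKM, lowered the pseudocount to 0.1, dropped the trend, fitted only the compared stages, blocked on the replicate number, required a log2 change of 1 in either direction, added a covariate for *Xist*, used only hearts without *Xist*, or left out each heart in turn. Rescaling to an equal sum of protein-coding nuclear genes was added after seeing the data.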

Additional observations from a re-analysis of the deposited data

How the results depend on the processing

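Counts are of the 42 tested genes, higher and then lower. No call took the other direction in any alternative. Requiring an absolute log2 change of at least 1 left 1 and 3 at P7d against E18.5d, 1 and 1 at P1d against E18.5d, and 1 and 2 at P7d against P1d. The 5 hearts without *Xist* gave 0 and 2, 0 and 3, and 0 and 0, with 2 residual degrees of freedom. Median of ratios and quantile normalization each gave 7 lower genes at P7d against E18.5d in place of 11, and rescaling to an equal sum gave 22 lower genes at P1d against E18.5d in place of 12. The cause was not tested. Leaving out each heart in turn gave 13 to 19 higher and 9 to 13 lower at P7d against E18.5d, 3 to 6 and 10 to 15 at P1d against E18.5d, and 17 to 24 and 6 to 9 at P7d against P1d. With a replicate block the counts were 18 and 12, 4 and 12, and 19 and 7, with *Eln* and *Bgn* added as higher and *Fn1* as lower at P7d against E18.5d and *Eln* in place of *Fbln1* at P7d against P1d. Same-numbered hearts deviated together with correlations of -0.055 to 0.112, so the numbers were not taken to pair the hearts. Apart from the *Xist*-free subset and the larger log2 change, 19 of 27, 12 of 16 and 21 of 26 calls were made in every fit that tested the gene. The filter of 5 FPKM left *Has2* and *Timp4* untested (means over the hearts of 1.03 and 2.49 FPKM). Their calls at P1d against E18.5d and at P7d against P1d are among those counted. Those lost in the most fits were *Fbln1* at P7d against P1d (13), *Mfap5* at P1d against E18.5d (12), *Nid1* at P7d against E18.5d (11), and *Sparc* at P7d against E18.5d and *Hspg2* at P1d against E18.5d (9 each). *Emilin1*, *Fbln5*, *Has2*, *Loxl2*, *Mfap2*, *Ogn*, *Postn*, *Thbs4* and *Tnc* lost a call in 1 to 7 fits. Calls not made on the deposited scale were added most often by an equal sum (18), median of ratios (15), protein-coding rescaling (15) and leaving out P1d replicate 2 (14). Without P1d replicate 2, the added calls were *Eln*, *Fn1*, *Ccdc80*, *Bgn* and *Timp3* at P7d against E18.5d, *Fbln5*, *Emilin1*, *Dcn* and *Fmod* at P1d against E18.5d, and *Eln*, *Fmod*, *Nid1*, *Nid2* and *Mmp2* at P7d against P1d. Without P1d replicate 3, *Thbs1*, *Lox* and *Mmp14* were called at P7d against P1d and *Thbs1* and *Ccdc80* at P1d against E18.5d, beside *Eln*, *Bgn* and *Timp3* at P7d against E18.5d. Leaving out 1 heart ended the call of *Sparc* at P7d against E18.5d for any E18.5d or P7d heart (adjusted p = 0.0588 to 0.105). It ended that of *Tnc* in the same comparison for replicates 1 and 2 of both stages (0.0514 to 0.0818), and that of *Hspg2* at P1d against E18.5d for the same replicates of those stages (0.0629 to 0.0806). It ended the *Mfap5* call at P1d for any heart but E18.5d replicate 2 and P1d replicate 3 (0.0548 to 0.126), and the *Nid1* call at P7d against E18.5d for any heart but P1d replicates 2 and 3 (0.0593 to 0.133). The *Emilin1* call at P7d against P1d was lost without P1d replicate 1 or P7d replicate 2 or 3 (0.0673 to 0.0724), that of *Mfap2* without P7d replicate 2 or 3 (0.0548 to 0.0666), and those of *Fbln5* and *Ogn* at P7d against E18.5d without E18.5d replicate 1 or P7d replicate 2 and, for *Fbln5*, also without E18.5d replicate 2 or P7d replicate 3 (0.0588 to 0.0839 and 0.0615 to 0.0762). Calls were added for *Fn1* at both postnatal stages, *Fbln5* and *Mmp14* without E18.5d replicate 3, *Fbn1* without E18.5d replicate 1, *Timp1* without P1d replicate 1, *Postn* without P7d replicate 2 and *Vcan* without P7d replicate 3 (0.0163 to 0.0470). Depth limits *Has1*, *Has2*, *Hapln1* and *Timp4*.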
